A study of Bos taurus with 29 samples.

Results

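Antimicrobial peptides and proteins of the skin are described here across the stages of bovine digital dermatitis, an infectious disease of the skin of the foot in cattle. The members are the 8 genes whose symbols are TAP, LAP, S100A8, S100A9, S100A12, S100A7, LCN2 and LTF, out of 11479 genes listed in the 5 deposited tables. All 8 are in every table and all 8 passed the filter on low counts, which left 10371 genes tested.

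Skin kills and starves bacteria with secreted peptides and proteins. Beta-defensins such as TAP (tracheal antimicrobial peptide) and LAP (lingual antimicrobial peptide) are small cationic peptides that epithelial cells make and that damage microbial membranes. The S100 proteins bind metal ions: S100A8 and S100A9 join into calprotectin, which withholds zinc and manganese from microbes and is abundant in neutrophils and in inflamed keratinocytes, S100A12 (calgranulin C) binds zinc and copper, and S100A7 (psoriasin) is a zinc-binding product of keratinocytes. LCN2 (lipocalin 2) captures bacterial siderophores and LTF (lactoferrin) binds iron, and both are made by glandular epithelium and stored in neutrophil granules.

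The study sequenced messenger RNA ends of 29 skin biopsies from Holstein-Friesian cattle, a dairy breed, with 1 library per sample. The groups were control skin (M0, n = 5), early lesions (M1, n = 5), acute ulcerated lesions (M2, n = 5), healing lesions (M3, n = 5), chronic lesions (M4, n = 5) and chronic lesions in which an active area had come back (M4.1, n = 4). The labels give no age and no animal or farm for a sample. M0 samples were taken above the interdigital cleft and not at a lesion, so lesion and body site cannot be told apart in any comparison with M0. All M0 samples and 2 M1 samples, not named in the labels, came from a slaughterhouse and the other 22 lesion samples from 6 farms. The effect of this source was not tested. Nothing in the labels ties replicates to separate animals. A p-value here therefore measures the spread between samples, which may be partly technical.

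Libraries held 2858186 to 5399615 counts over the genes listed in every table. All 7 basal keratinocyte markers were measured, and their summed level was 26121 to 55769 CPM (counts rescaled to the same effective library size) in lesions and 8541 to 11584 CPM in M0, so that epidermis was present in every library. Markers of hair follicles (10 of 12 measured) summed to 5.65 to 681 CPM in lesions and 3755 to 6317 CPM in M0. Markers of apocrine and sweat glands (9 of 13 measured) summed to 6.38 to 51.9 CPM in lesions and 344 to 1856 CPM in M0, and those of sebaceous glands (8 of 12 measured) to 502 to 1470 CPM in lesions and 3334 to 4431 CPM in M0. The lesion biopsies thus held far less RNA of these summed markers than M0 skin, but not of every gland marker. At edgeR adjusted p under 0.05, 1 of the 8 sebaceous markers was higher in each lesion stage and 7 were lower. Among gland markers outside the sums, AQP5 averaged 14.2 CPM in M3 and 35.9 CPM in M4 (M0 0.08 CPM). FADS2 averaged 6.11 CPM in M1 and 7.88 CPM in M2 (M0 0.4 CPM), and CLDN10 was lower in every stage. AQP5 had 2 counts and FADS2 11 counts over all M0 libraries, so a table could list them mainly through the counts of its stage. Their being higher than M0 where listed was thus largely set by the listing, and stages without a listing are not described. CLDN10 had 49 counts over all M0 libraries. The part of these differences in the results below was not tested.

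The members parted into a group that rose and a group that fell. TAP, LAP, S100A8, S100A9 and S100A12 rose in each of the 5 lesion stages against M0, by 7.81 to 10.19 on the log2 scale for TAP and by 3.39 to 3.82 for S100A12. LCN2 and LTF fell in each stage, and S100A7 did so in M1, M2 and M4.1 alone. In M1, 5 members were higher (edgeR adjusted p under 0.05), where 21.9% of all tested genes were higher, and 3 were lower, where 21.1% were. In M2, 5 were higher and 3 lower, against 21.7% and 20.5% of all tested genes. In M3, 5 were higher and 2 lower, against 20.4% and 19% of all tested genes. In M4, 5 were higher and 2 lower, against 21.3% and 21.1%. In M4.1, 5 were higher and 3 lower, against 20.2% and 18.9%. The median log2 fold change of the 8 members was 3.58 in M1, 3.37 in M2, 3.90 in M3, 4.13 in M4 and 3.27 in M4.1, while that of all tested genes lay between -0.02 and 0.00. These are bulk samples, so fewer cells of a type and less RNA per cell cannot be told apart, and the 5 comparisons share the M0 libraries. How many of all tested genes had lesion libraries wholly outside the M0 range was not counted. Such separation is therefore not shown to be particular to the members.

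TAP (ENSBTAG00000048171) was close to absent in M0, as was LAP. Its level in M0 was 0.156, 0.382, 2.49, 1.06 and 0.895 CPM in replicates 1 to 5, which is 1 to 12 counts per library. In M1 it was 614, 13.2, 986, 1127 and 58.8 CPM, and in M2 37.1, 69.8, 178, 908 and 261 CPM. Every library of these stages lay above every M0 library, and the highest library was 85.6 times the lowest in M1 and 24.4 times the lowest in M2. The level was 74.6, 349, 1301, 1434 and 887 CPM in M3, 124, 2835, 1104, 1451 and 236 CPM in M4, and 238, 414, 129.6 and 103 CPM in M4.1. All 24 lesion libraries were above the highest M0 library. The log2 fold change was 9.15 ± 1.37 in M1 (SE, adjusted p = 4.9e-06), 8.20 ± 1.33 in M2 (adjusted p = 1.6e-05), 9.68 ± 1.39 in M3 (adjusted p = 3.3e-06), 10.19 ± 1.41 in M4 (adjusted p = 1.6e-06) and 7.81 ± 1.33 in M4.1 (adjusted p = 3.8e-05). With limma-voom the TAP call was lost in M1 (adjusted p = 0.061), M2 (adjusted p = 0.077) and M4.1 (adjusted p = 0.073), at log2 fold changes of 8.13, 7.70 and 7.95. Without M2 replicate 4 the change in M2 was 7.11, without M4 replicate 2 that in M4 was 9.53, and without M0 replicate 3 the changes were 8.40 to 10.77.

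LAP (ENSBTAG00000053889), the other epithelial beta-defensin, followed the same course. It had 0.467, 0.763, 0, 0.904 and 0.895 CPM in M0 replicates 1 to 5, which is 0 to 6 counts per library. It had 126, 15.4, 330.2, 287 and 8.78 CPM in M1, and 23.8, 25.9, 28.2, 92.7 and 329 CPM in M2. The lowest of these 10 lesion libraries, M1 replicate 5, was still above the highest M0 library. LAP had 10.8, 401, 143, 769 and 724 CPM in M3, 236, 678, 880.1, 969 and 290.2 CPM in M4, and 112, 109.9, 51.5 and 44.3 CPM in M4.1. The mean was highest in M4, and all 24 lesion libraries exceeded M0. Relative spread was smallest in M4.1, with a coefficient of variation of 46.1%, against 54.8% in M4. The fitted change on the log2 scale was 7.88 ± 1.26 in M1 (adjusted p = 1.2e-05), 7.26 ± 1.24 in M2 (adjusted p = 3.2e-05), 9.29 ± 1.303 in M3 (adjusted p = 2.4e-06), 9.87 ± 1.32 in M4 (adjusted p = 9.7e-07) and 6.93 ± 1.25 in M4.1 (adjusted p = 7.6e-05). With limma-voom the LAP call was lost in M1 (adjusted p = 0.11), M2 (adjusted p = 0.13), M3 (adjusted p = 0.057) and M4.1 (adjusted p = 0.11), at log2 fold changes of 6.86, 6.56, 8.43 and 6.997. Without M2 replicate 5 the change in M2 was 6.03.

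TAP and LAP belong to the beta-defensin gene family, and their sequences were not compared here. Whether the counting split reads between similar genes of the family was not tested, so the share of each is uncertain. In the RefSeq annotation of assembly ARS-UCD2.0, a later assembly than the files use, TAP and LAP lie on the same chromosome with 10 protein-coding genes between them. A further pair of beta-defensin genes without a symbol also rose, and these were chosen after their values were seen. The beta-defensin 103B-like gene (ENSBTAG00000052579), the protein-coding gene next to TAP in that annotation, averaged 72.9 ± 43.5 CPM in M0, 1245 ± 702 CPM in M1, 1114 ± 142 CPM in M2, 1220.1 ± 398 CPM in M3, 1455 ± 619 CPM in M4 and 1667 ± 444 CPM in M4.1 (SD). Its log2 fold change was 4.09 in M1, 3.93 in M2, 4.07 in M3, 4.32 in M4 and 4.52 in M4.1, with adjusted p between 5.3e-09 and 2.1e-08. The beta-defensin 103A-like gene (ENSBTAG00000052422) averaged 0.402 CPM in M0 and 8.90 to 14.6 CPM in the lesion stages, and its log2 fold change was 4.43 to 5.14. Unlike TAP and LAP, neither had its lowest lesion mean in M4.1, where both were highest. In M4.1 against M4 the edgeR test passed for none of these 4 genes. The log2 difference was 0.20 ± 0.39 (SE, adjusted p = 0.80) for the 103B-like gene and 0.71 ± 0.51 (adjusted p = 0.42) for the 103A-like gene.

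**Figure D1:**
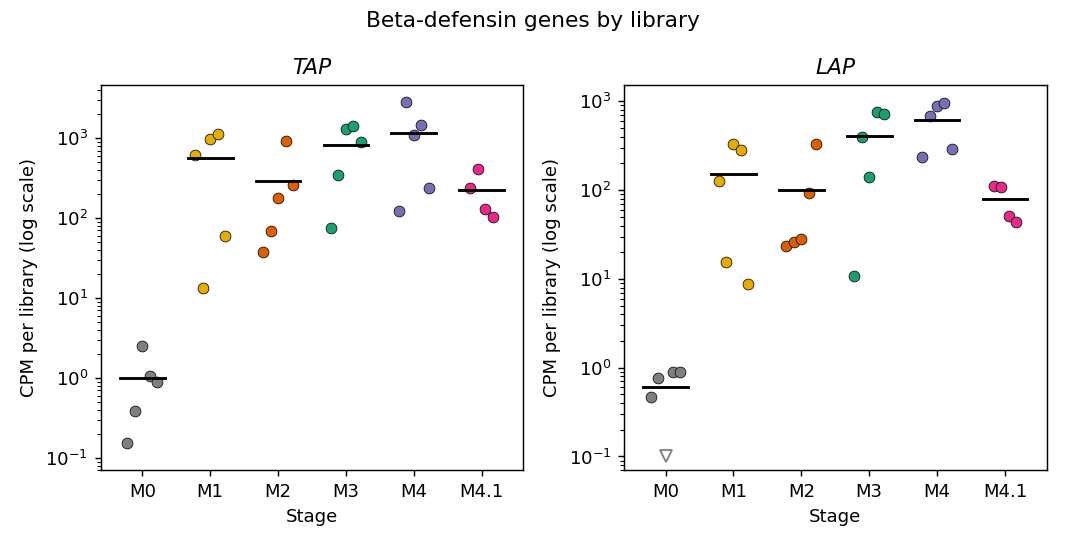
Level of TAP and LAP in each library, in CPM on a log scale, by stage. Each point is a library, the black line is the group mean, and the open triangle at the bottom is the M0 library without a LAP count. All 24 lesion libraries lie above M0, and the lesion libraries of a stage spread widely, as for TAP in M1 from 13.2 to 1127 CPM.

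The calgranulin genes were already expressed in M0 skin and rose by 3.07 to 4.602 on the log2 scale over the 3 genes and 5 stages. S100A8 (ENSBTAG00000012640) had 1146, 752, 721, 181 and 1799 CPM in M0 replicates 1 to 5. It had 13674, 8679, 24218, 11508 and 6394 CPM in M1, and 8229, 9085, 7185, 11235 and 15344 CPM in M2. Every one of these libraries was above the highest M0 library. S100A8 had 10945, 18281, 12039, 19432 and 26496 CPM in M3, 21142, 13838, 19044, 17033 and 29623 CPM in M4, and 8086, 11767, 9577 and 11305 CPM in M4.1. The M4 libraries all lay above the M4.1 libraries. The log2 fold change against M0 was 3.81 ± 0.43 in M1 (adjusted p = 6.1e-08), 3.47 ± 0.42 in M2 (adjusted p = 2.2e-07), 4.24 ± 0.44 in M3 (adjusted p = 1.5e-08), 4.45 ± 0.44 in M4 (adjusted p = 6.8e-09) and 3.47 ± 0.43 in M4.1 (adjusted p = 4.3e-07).

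S100A9 (ENSBTAG00000006505), the partner of S100A8 in calprotectin, had 168, 129.5, 143, 20.8 and 490.3 CPM in M0 replicates 1 to 5. It had 2509, 1387, 4499, 2131 and 1182 CPM in M1, and 1344, 1696, 1342, 1919.5 and 3444 CPM in M2. None of these lesion libraries reached down to the M0 range. S100A9 had 1995, 2842, 2761, 5959 and 6016 CPM in M3, 4554, 2829.9, 6397, 3688 and 5662 CPM in M4, and 1401, 1948, 1309.9 and 1738 CPM in M4.1. As with S100A8, M4 lay wholly above M4.1. On the log2 scale the change was 3.62 ± 0.53 in M1 (adjusted p = 3.4e-06), 3.36 ± 0.52 in M2 (adjusted p = 8.9e-06), 4.36 ± 0.55 in M3 (adjusted p = 4.4e-07), 4.602 ± 0.55 in M4 (adjusted p = 1.8e-07) and 3.07 ± 0.53 in M4.1 (adjusted p = 4.4e-05). Without M0 replicate 5, which had the highest control level, the changes were larger, at 4.31 in M1, 4.05 in M2, 5.06 in M3, 5.30 in M4 and 3.76 in M4.1.

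S100A12 (ENSBTAG00000012638) was the steadiest member between libraries of a lesion stage. It had 1711, 938, 1309, 592 and 1712 CPM in M0 replicates 1 to 5. It had 18600.0, 10536, 23860.1, 11535 and 8796 CPM in M1, and 11099.9, 11081, 11124, 15014 and 17309.9 CPM in M2. These libraries lay clear of M0, the M1 libraries spread 2.71-fold from lowest to highest, and 3 of the M2 libraries were nearly equal. S100A12 had 12488, 14028, 14234, 18583 and 14787 CPM in M3, 17963, 14608, 16526, 16410.3 and 22619 CPM in M4, and 12666, 15276, 13636 and 13835 CPM in M4.1. Its coefficient of variation within a stage was 7.78% in M4.1 and 15.3% in M3, and 43.3% in M1. The change against M0 on the log2 scale was 3.55 ± 0.27 in M1 (adjusted p = 7.8e-11), 3.39 ± 0.27 in M2 (adjusted p = 1.7e-10), 3.57 ± 0.27 in M3 (adjusted p = 8.1e-11), 3.82 ± 0.28 in M4 (adjusted p = 2.5e-11) and 3.47 ± 0.28 in M4.1 (adjusted p = 2.0e-10).

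**Figure D2:**
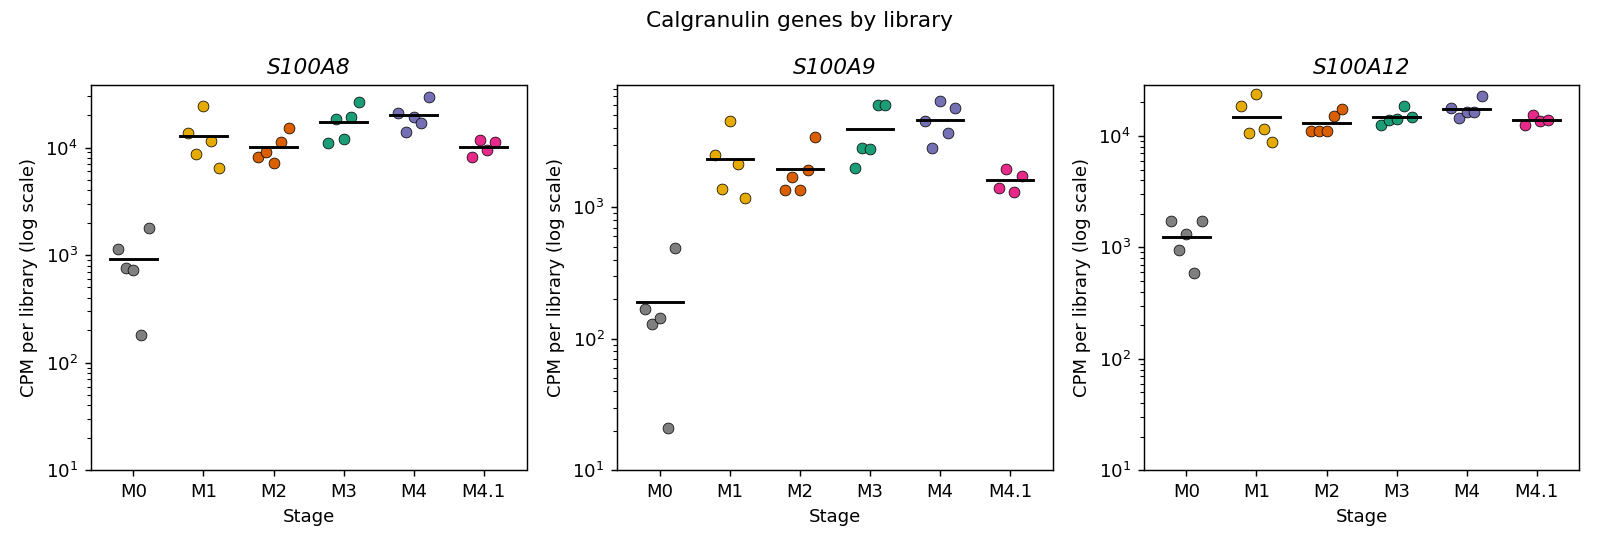
Level of S100A8, S100A9 and S100A12 in each library, in CPM on a log scale, by stage. Points are libraries and black lines group means. All 24 lesion libraries lie above the 5 M0 libraries for each gene, and S100A12 is nearly level across lesion stages while S100A8 and S100A9 have their highest means in M4.

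The 8 members together took 0.741% ± 0.243 of the counts of a library in M0, 2.91% ± 1.09 in M1, 2.71% ± 0.595 in M2, 3.52% ± 0.611 in M3, 3.62% ± 0.842 in M4 and 2.84% ± 0.396 in M4.1 (SD). S100A8, S100A9 and S100A12 made up most of this share in lesions, with 2.85% of counts in M1 and 3.397% in M4, against 0.281% in M0. In the ARS-UCD2.0 annotation S100A8, S100A12 and S100A9 are consecutive protein-coding genes, and 3 protein-coding genes lie between S100A8 and S100A7, which was lower in lesions.

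S100A7 (ENSBTAG00000008238) was high in every M0 library and had the widest relative spread of the 8 members over the lesion libraries (coefficient of variation 212%). It had 3931, 2952, 5764, 2248 and 4201 CPM in M0 replicates 1 to 5. It had 25.8, 20.99, 97.9, 24.3 and 1.596 CPM in M1, and 1.74, 51.5, 67.2, 8.89 and 967 CPM in M2. These 10 libraries all lay below M0, and M2 replicate 5 stood far above the other M2 libraries. S100A7 had 97.9, 447, 2.42, 3272 and 563 CPM in M3, 111, 26.4, 743, 201 and 3026 CPM in M4, and 1.90, 126, 71.9 and 2.33 CPM in M4.1. M3 replicate 4 and M4 replicate 5 lay within the M0 range, and the other 22 lesion libraries lay below it. The log2 fold change was -6.81 ± 1.71 in M1 (adjusted p = 0.0020), -4.13 ± 1.498 in M2 (adjusted p = 0.028) and -6.23 ± 1.83 in M4.1 (adjusted p = 0.0083).

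In M3 and M4 the S100A7 values were -2.12 ± 1.37 (adjusted p = 0.23) and -2.22 ± 1.38 (adjusted p = 0.20), which did not pass the test. Without M3 replicate 4 the M3 value was -3.79 (adjusted p = 0.057), and without M4 replicate 5 the M4 value was -3.82 (adjusted p = 0.052). The calls of S100A7 turned on single libraries and on the method. Leaving out M2 replicate 1, 2, 3 or 4 singly ended the M2 call (log2 fold changes of -3.81 to -3.92, with adjusted p of 0.053 to 0.062). Leaving out M2 replicate 5 moved it to -6.89 (adjusted p = 0.0020), limma-voom gave -6.87 (adjusted p = 5.0e-04) and the replicate number as a block -6.11 (adjusted p = 0.0054). Without M1 replicate 3 the M1 value was -7.73, and without M4.1 replicate 2 the M4.1 value was -7.20. For S100A7 the authors' deposited table gave an adjusted p of 0.059 in M2, which did not pass, while the other 7 members were past 0.05 in it. With limma-voom S100A7 was lower in M3 (-4.39, adjusted p = 0.011) and in M4 (-3.76, adjusted p = 0.025), and with the replicate number as a block in M4 (-3.72, adjusted p = 0.045).

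LCN2 (ENSBTAG00000014149), the siderophore-binding lipocalin, had low counts throughout. It had 3.11, 18.9, 9.34, 9.80 and 15.9 CPM in M0 replicates 1 to 5, which is 20 to 99 counts per library. It had 0.537, 0.206, 1.03, 1.26 and 2.79 CPM in M1, and 0.580, 0.888, 1.203, 1.27 and 1.21 CPM in M2. The lesion libraries here held 1 to 14 counts each, so single values are imprecise. LCN2 had 1.94, 0, 2.17, 1.11 and 3.23 CPM in M3, 0.799, 2.102, 1.31, 0.227 and 0 CPM in M4, and 0, 0.386, 2.13 and 1.70 CPM in M4.1. Of 24 lesion libraries, 23 lay below the lowest M0 library, and M3 replicate 5 lay just above it. Fitted log2 fold changes were -3.23 ± 0.64 in M1 (adjusted p = 1.7e-04), -3.45 ± 0.64 in M2 (adjusted p = 9.4e-05), -2.78 ± 0.63 in M3 (adjusted p = 9.0e-04), -3.70 ± 0.69 in M4 (adjusted p = 9.0e-05) and -3.30 ± 0.69 in M4.1 (adjusted p = 4.0e-04). Without M1 replicate 5 the M1 value was -3.93, without M4 replicate 2 the M4 value was -4.34, and without M4.1 replicate 3 the M4.1 value was -3.89.

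LTF (ENSBTAG00000001292), which encodes the iron-binding protein lactoferrin, had 74.8, 49.2, 38.0, 147 and 180.0 CPM in M0 replicates 1 to 5. It had 4.29, 1.03, 6.68, 2.21 and 0.598 CPM in M1, and 3.09, 5.86, 9.63, 13.6 and 9.07 CPM in M2. M1 had the lowest mean of the lesion stages. LTF had 8.86, 16.9, 10.6, 15.1 and 1.85 CPM in M3, 4.79, 24.6, 15.4, 3.401 and 11.3 CPM in M4, and 5.08, 3.48, 22.0 and 6.57 CPM in M4.1. All 24 lesion libraries were below the lowest M0 library. The log2 fold change was -5.08 ± 0.67 in M1 (adjusted p = 7.1e-07), -3.58 ± 0.59 in M2 (adjusted p = 2.1e-05), -3.17 ± 0.58 in M3 (adjusted p = 9.2e-05), -3.04 ± 0.58 in M4 (adjusted p = 1.2e-04) and -3.36 ± 0.64 in M4.1 (adjusted p = 1.4e-04), and without M4.1 replicate 3 the M4.1 value was -4.29. The summed gland markers given above were also lower in every lesion library than in M0, and their part in the fall of LCN2 and LTF was not tested.

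**Figure D3:**
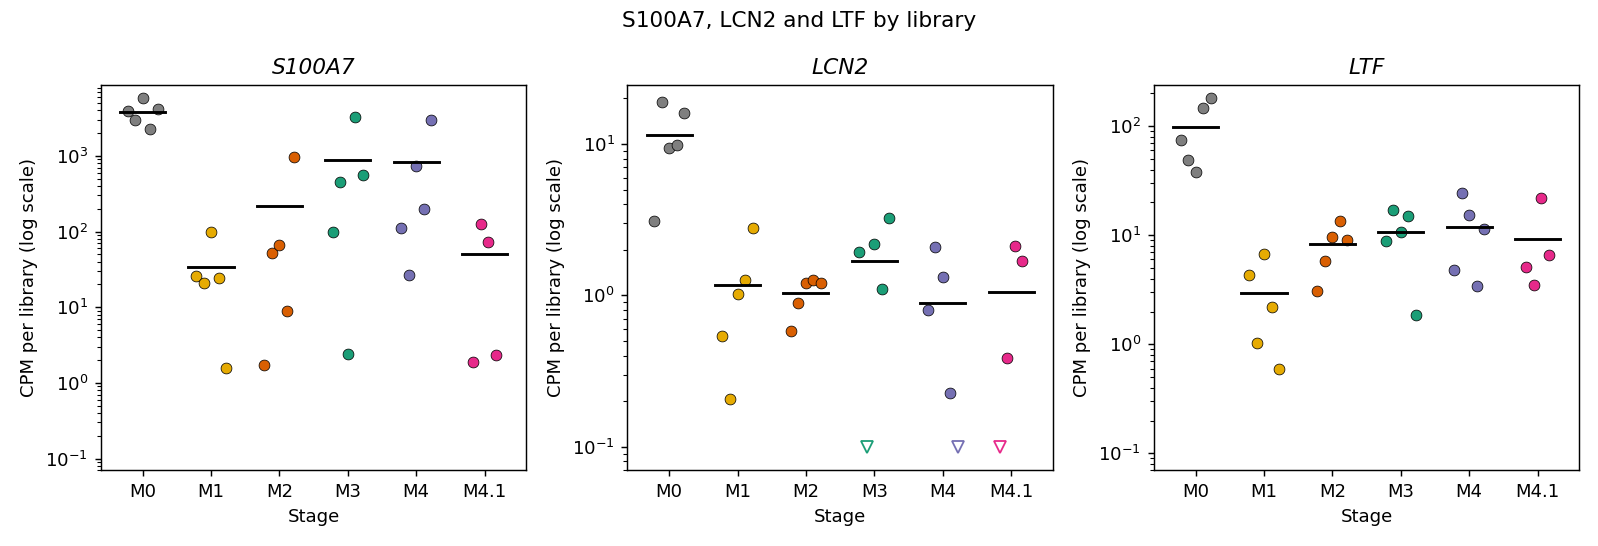
Level of S100A7, LCN2 and LTF in each library, in CPM on a log scale, by stage. Points are libraries, black lines group means, and open triangles at the bottom are the 3 lesion libraries without an LCN2 count. S100A7 spreads from 1.596 to 3272 CPM over the lesion libraries, with a library in M3 and a library in M4 inside the M0 range, whereas LTF is below M0 in all 24.

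**Figure D4:**
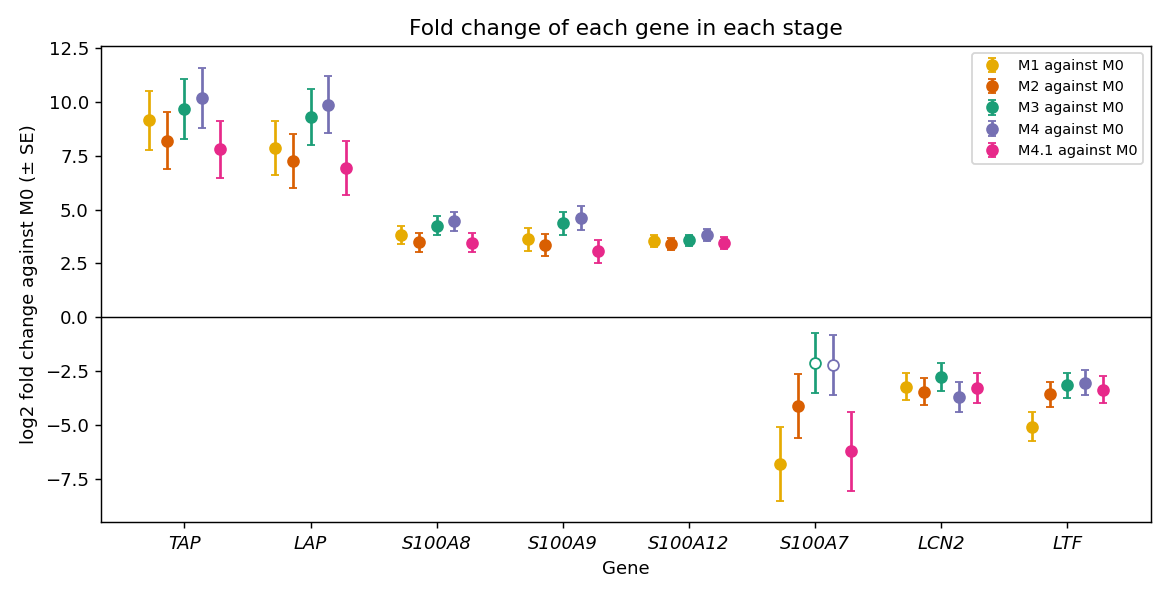
Log2 fold change of each member in each lesion stage against M0, with approximate standard errors. Filled points passed adjusted p = 0.05 and open points did not. The changes of S100A12 differ little between stages (3.39 to 3.82), those of all 5 risers are largest in M4, and those of S100A7 are open in M3 and M4.

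The lesion stages were also compared with each other, to ask whether defence genes differ between early, acute, healing, chronic and reactivated lesions. No member passed the test in any of these 5 comparisons. For TAP, LAP, S100A8 and S100A9 the order of the means was the same, with M4 highest, then M3, M1 and M2, and M4.1 last among the lesion stages. For S100A8 the last 2 were nearly equal, at 10184 ± 1686 CPM in M4.1 and 10216 ± 3231 CPM in M2 (SD). Neighbours in this order had overlapping ranges in each of the 4 genes, down to M4.1, which lay clear of M0. S100A12 had its highest mean in M4 (17625 ± 3035 CPM) and its lowest lesion mean in M2 (13126 ± 2888 CPM). S100A7 was ordered M0, M3, M4, M2, M4.1 and M1, with M3 and M4 nearly equal at 876 ± 1359 and 822 ± 1264 CPM.

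Between consecutive stages the data held few differences of any kind. In M2 against M1, 0 of 8 members were called and 0% of all tested genes were, with 417 of 10371 genes at an unadjusted p under 0.05 and 0 called by limma-voom or DESeq2. LTF was the member at an unadjusted p under 0.05 there, with 8.24 ± 3.97 CPM in M2 and 2.96 ± 2.52 CPM in M1 (log2 1.51 ± 0.68, edgeR adjusted p = 1). In M3 against M2, 0 of 8 members were called and 0% of all tested genes were, with 923 genes at an unadjusted p under 0.05 and 0 called by limma-voom or DESeq2. LAP, at 2.04 ± 0.87 on the log2 scale (edgeR adjusted p = 0.52), and S100A9, at 1.01 ± 0.48 (adjusted p = 0.56), were among them. In M4 against M3, 0 of 8 members were called and 0% of all tested genes were, with 715 genes at an unadjusted p under 0.05, 0 called by limma-voom and 2 by DESeq2, and the member nearest to a difference was LCN2 at -0.92 ± 0.80 (adjusted p = 0.85).

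Reactivated lesions stood lower than chronic ones in several of the risers, although 0 of 8 members passed in M4.1 against M4, where 4.3% of all tested genes did. LAP averaged 79.5 ± 36.6 CPM in M4.1 and 611 ± 335 CPM in M4, a log2 difference of -2.94 ± 0.98 (adjusted p = 0.071). S100A9 averaged 1599 ± 297 CPM in M4.1 and 4626 ± 1442 CPM in M4, a difference of -1.53 ± 0.53 (adjusted p = 0.077). S100A8 averaged 10184 ± 1686 CPM in M4.1 and 20136 ± 5948 CPM in M4, a difference of -0.98 ± 0.41 (adjusted p = 0.14). For these 3 genes every M4.1 library lay below every M4 library, as was so in either direction for 8.43% of all tested genes. TAP (-2.38 ± 1.03, adjusted p = 0.16) and S100A7 (-4.01 ± 1.64, adjusted p = 0.13) had overlapping ranges. Without M4 replicate 5 the S100A7 difference was -2.41, without M4.1 replicate 2 it was -4.99, and without M4 replicate 2 the TAP difference was -1.72. S100A12, LTF and LCN2 differed by -0.35 ± 0.26, -0.32 ± 0.62 and 0.39 ± 0.84. With only the M4.1 and M4 libraries in the fit, LAP and S100A9 (adjusted p = 0.021 each) and S100A8 (adjusted p = 0.041) passed, and with DESeq2 LAP (adjusted p = 0.029), S100A9 (adjusted p = 0.044) and S100A7 (adjusted p = 0.034) did.

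Chronic lesions stood higher than acute ones in the same genes, with 0 of 8 members called in M4 against M2, where 3.11% of all tested genes were. LAP averaged 611 ± 335 CPM in M4 and 100.02 ± 132 CPM in M2, a log2 difference of 2.62 ± 0.89 (adjusted p = 0.082). TAP differed by 1.98 ± 0.93 (adjusted p = 0.20), S100A8 by 0.98 ± 0.39 (adjusted p = 0.12) and S100A9 by 1.25 ± 0.48 (adjusted p = 0.12). No member had separate ranges in this comparison, while 4.87% of all tested genes did. LAP passed without M2 replicate 5 (3.84, adjusted p = 0.017) and with DESeq2 (adjusted p = 0.035), and S100A9 passed with only these 2 groups in the fit (adjusted p = 0.048). Both comparisons use the M4 libraries, and their background counts rested on single libraries. In M4.1 against M4, 446 genes were called, but 0 without M4 replicate 1 or M4.1 replicate 3 and 847 without M4 replicate 2. In M4 against M2, 323 genes were called, but 0 without M4 replicate 1 or M2 replicate 3 and 900 without M2 replicate 5.

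Within the 24 lesion libraries the calgranulins varied together, as did TAP with LAP. Pearson's r of log2 CPM was 0.945 between S100A8 and S100A9, 0.850 between S100A8 and S100A12, 0.826 between TAP and LAP, and 0.831 between LAP and S100A9. With the stage means taken out, r was 0.910, 0.867, 0.799 and 0.756 for these pairs. TAP went less closely with the calgranulins, at 0.531 with S100A8, 0.603 with S100A9 and 0.546 with S100A12, and at 0.366, 0.480 and 0.463 with stage means taken out. S100A7, although lower in lesions than in M0, was higher in the lesion libraries with more S100A8 (r = 0.736) and S100A9 (r = 0.748). LTF had an r of 0.278 with S100A8, and LCN2, at very low counts, an r of -0.124. The libraries share stage, depth and scaling, so these values describe the 24 libraries only. The ratio of S100A12 to S100A8 had a median of 0.956 in M3, 0.868 in M4 and 1.49 in M0, with exact two-sided permutation p = 0.040 in M3 and 0.024 in M4 against M0. Neither held after adjustment over the 15 ratio comparisons made (adjusted p = 0.30).

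Among the lesion libraries, S100A8, S100A9, LAP and S100A7 tended to be higher where markers of differentiating keratinocytes were higher. Of 10 markers of these cells 8 were measured (KRT1, KRT10, IVL, DSG1, DSC1, LOR, SBSN and KRT2), and their summed level ranged over 24621 to 40343 CPM in M0, 2242 to 52886 CPM in M1, 2334 to 70475 CPM in M2, 12161 to 172970.0 CPM in M3, 44810 to 219476 CPM in M4 and 2685 to 29727 CPM in M4.1. The M4 libraries lay wholly above the M4.1 libraries in this sum, as they did for LAP, S100A8 and S100A9. Across the 24 lesion libraries, r of log2 CPM with the log2 sum was 0.912 for S100A9, 0.903 for S100A8, 0.849 for LAP, 0.788 for S100A7, 0.732 for S100A12, 0.584 for TAP and 0.241 for LTF. With stage means taken out it was 0.827 for S100A9, 0.825 for S100A8, 0.763 for LAP and 0.724 for S100A7. M2 replicate 5, the library that stood apart for S100A7, LAP and S100A9, had a marker sum of 70475 CPM, while the other M2 libraries had 2334 to 8057 CPM. M3 replicate 4 and M4 replicate 5, the lesion libraries with the most S100A7, had sums of 127699 and 181726 CPM, but M4 replicate 1, with the highest sum of 219476 CPM, had 111 CPM of S100A7. The M0 libraries had marker sums inside the lesion range, and their LAP, S100A8 and S100A9 levels lay below every lesion library. M0 samples also differed from lesions in body site, so this comparison cannot decide the part of keratinocyte content. That part was not tested.

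**Figure D5:**
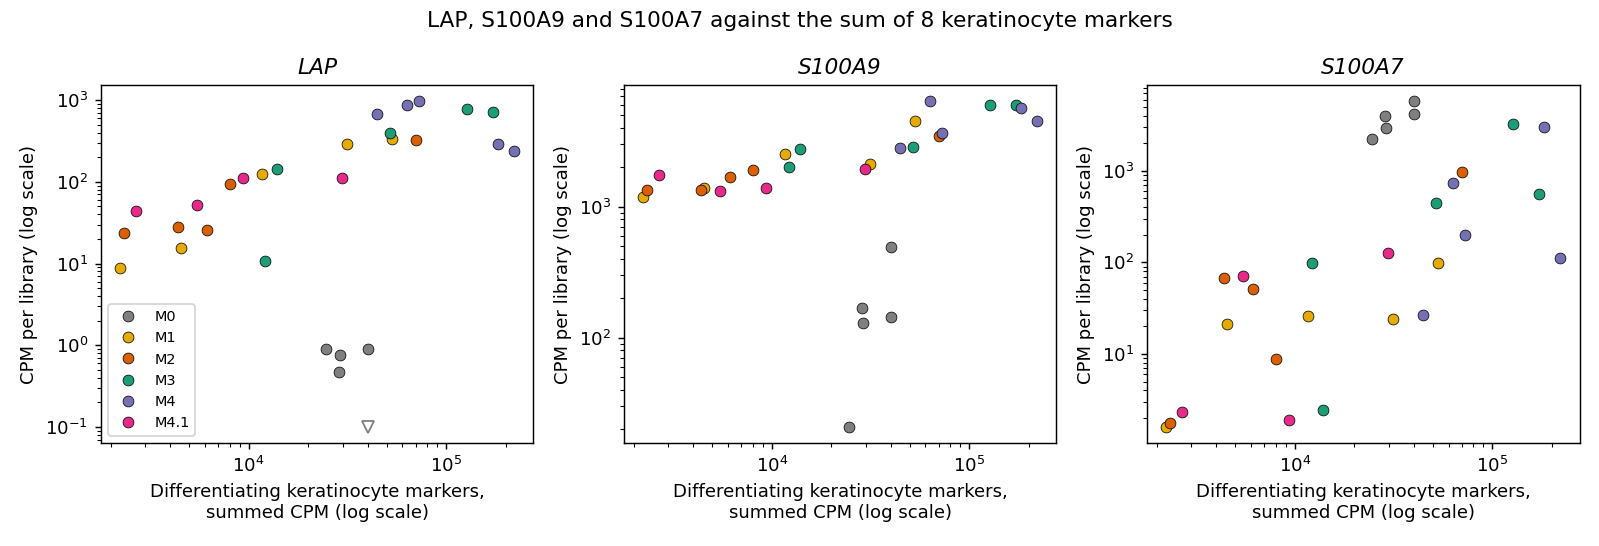
Level of LAP, S100A9 and S100A7 in each library against the summed level of the 8 measured markers of differentiating keratinocytes, both in CPM on log scales. Points are libraries coloured by stage, and the open triangle is the M0 library without a LAP count. Lesion libraries with a higher marker sum had more of each gene (r = 0.849, 0.912 and 0.788), while the M0 libraries lie apart, below the lesions for LAP and S100A9 and above nearly all of them for S100A7.

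Neutrophils also make S100A8, S100A9, S100A12, LCN2 and LTF, but only 4 of 19 neutrophil markers were measured in the joint fit (FCGR3A, PADI4, ITGB2 and PGLYRP1), and granule genes such as ELANE and MPO were not analysed here. The summed level of the 4 was 6.44 to 15.6 CPM in M0, 7.71 to 15.2 CPM in M1, 7.16 to 28.6 CPM in M2, 7.01 to 15.3 CPM in M3, 3.19 to 13.5 CPM in M4 and 5.71 to 21.3 CPM in M4.1. Every lesion stage overlapped M0 in this sum. Of the 4 markers 1 was called higher in M2, where 21.7% of all tested genes were, and 0 in the other stages. The sum rests on 4 genes at low levels, so it cannot show whether neutrophil content differed from M0. In the 24 lesion libraries r with this sum was -0.407 for S100A8, -0.453 for S100A9 and -0.299 for S100A12. The neutrophil receptor genes CSF3R and CXCR1 are in some of the authors' deposited tables only. They had 24 and 15 counts over all M0 libraries, so a table could list them mainly through the counts of its stage. Stages without a listing are not described. In the authors' deposited tables CSF3R averaged 9.94 CPM in M1 and 0.870 CPM in M0 (adjusted p = 5.7e-04), 6.09 CPM in M2 and 0.907 CPM in M0 (adjusted p = 0.0050), 6.03 CPM in M3 and 0.849 CPM in M0 (adjusted p = 0.0069), and 12.2 CPM in M4.1 and 0.923 CPM in M0 (adjusted p = 1.8e-04). In the authors' deposited tables CXCR1 averaged 8.998 CPM in M1 and 0.540 CPM in M0 (adjusted p = 0.0019), and 13.8 CPM in M4.1 and 0.572 CPM in M0 (adjusted p = 1.9e-05). Of 12 macrophage and monocyte markers 9 were measured, and their sum was 51.9 to 376 CPM in lesions and 50.7 to 221 CPM in M0. Of the 9 markers 2 were called higher in M1, M2 and M4.1 and 1 in M3, while in M4 0 were higher and 1 was lower. Over all tested genes 20.2% to 21.9% were higher in a stage, and 21.1% were lower in M4. The part of immune cells in the results was not tested.

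For each member the 3 genes most alike over all 29 libraries were found by Pearson's r of log2 CPM. TAP was most like GJB6 (r = 0.918), NUCB2 (0.906) and TCN1 (0.903), and LAP was most like GJB6 (0.940), CALM3 (0.936) and RHCG (0.935). GJB6 encodes connexin 30, a gap junction protein of epidermis, and TCN1 a vitamin B12 carrier. S100A8 and S100A9 shared RAB10 (0.961 and 0.950), GJA1 (0.960 and 0.946) and TMEM171 (0.959 and 0.947), of which GJA1 encodes the gap junction protein connexin 43. S100A12 was most like CDA (0.976), A2ML1 (0.972) and PI3 (0.971), and the last 2 encode protease inhibitors of epidermis. S100A7 was most like ATP6V1C2 (0.943), C7H5orf46 (0.939) and the keratin gene KRT23 (0.922). These 3 held within the 24 lesion libraries (0.918, 0.920 and 0.890). For LAP, r within lesions was 0.863 with GJB6, 0.830 with CALM3 and 0.844 with RHCG. It was 0.583 to 0.861 for the calgranulins and 0.668 to 0.694 for TAP, lower than over all 29 libraries. LCN2 was most like RNF128 (0.842), R3HDM2 (0.814) and MCRIP2 (0.805), and LTF was most like BOC (0.842), EPCAM (0.837) and RBM47 (0.825), with values within lesions of 0.457 to 0.541 for LCN2 and 0.523 to 0.583 for LTF. EPCAM encodes an adhesion molecule of simple and glandular epithelium.

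Other antimicrobial genes did not move as one block. Of 26 symbols of other cationic peptides 3 were tested. Of these 0 of 3 were called in M1, M2 and M3, while 1 was higher in M4 and 1 in M4.1. Over all tested genes 20.2% to 21.9% were higher in a stage. The list was matched by symbol, so this count leaves out the pair of beta-defensin genes without a symbol given above. That pair was called higher in each stage, but it was chosen after its values were seen. ADM, the peptide adrenomedullin, rose in M4 (163 ± 93.1 CPM in M4 and 47.6 ± 11.5 CPM in M0, log2 1.78 ± 0.35, adjusted p = 2.0e-04), and the beta-defensin DEFB13 in M4.1 (12.1 ± 8.75 CPM in M4.1 and 2.91 ± 2.07 CPM in M0, log2 2.07 ± 0.68, adjusted p = 0.017). DEFB, a further beta-defensin, had -0.24 ± 0.80 in M1 and 1.71 ± 0.79 in M4 (adjusted p = 0.085). Of 31 symbols of other antimicrobial proteins and protease inhibitors 15 were tested, with 5 higher and 2 lower in M1, M2, M3 and M4.1 and 3 higher and 2 lower in M4, and a median log2 fold change of 0.17 to 0.57 over the stages, the same with PIGR at a bound of 3 counts in M4. Of all tested genes 21.3% were higher in M4, so 3 of 15 there was near the background, and the 2 of 15 lower lay below the 18.9% to 21.1% of all tested genes that were lower. PI3, which encodes the elastase inhibitor elafin, averaged 590.5 to 1162 CPM in the lesion stages and 0.501 ± 1.12 CPM in M0 (SD). It rose by 10.15 to 11.12 on the log2 scale, a size that is imprecise because its M0 level was near 0. CHI3L1, a chitinase-like protein, rose by 2.17 to 2.55. RNASE4, a secreted ribonuclease, fell by 1.47 ± 0.23 in M4.1 and by 2.18 ± 0.22 in M4. PIGR, which carries IgA across glandular epithelium, averaged 0 CPM in M4 and 0.264 to 0.799 CPM in the other stages, against 14.8 ± 12.4 CPM in M0, and was called lower in each stage.

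SLPI, which encodes a secreted leukocyte protease inhibitor, and LPO, lactoperoxidase, are in some of the authors' deposited tables only and were chosen after their values were seen. In the authors' deposited tables SLPI averaged 64.7 CPM in M1 (adjusted p = 0.051), 61.9 CPM in M2 (adjusted p = 0.017) and 94.1 CPM in M4.1 (adjusted p = 0.050), and 0 CPM in M0 in all 3 tables. In the authors' deposited tables LPO averaged 31.7 CPM in M1 and 0.405 CPM in M0 (adjusted p = 0.0043), 80.4 CPM in M3 and 0.396 CPM in M0 (adjusted p = 0.0011), and 107 CPM in M4 and 0.370 CPM in M0 (adjusted p = 5.8e-06). SLPI had 0 counts and LPO 11 counts over all M0 libraries, so a table could list them mainly through the counts of its stage. Their being higher than M0 where listed was thus largely set by the listing, and stages without a listing are not described. SLPI passed the threshold in M2 alone.

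Of 16 other S100 symbols 12 were tested, with 6 higher and 2 lower in M1 and M2, 5 higher and 3 lower in M3, 4 higher and 3 lower in M4, and 5 higher and 2 lower in M4.1. Over all tested genes 20.2% to 21.9% were higher and 18.9% to 21.1% lower, so the share of these S100 genes that were lower was near the background. The median log2 fold change was 0.73 in M1, 0.71 in M2, 0.32 in M3, 0.22 in M4 and 0.81 in M4.1. S100A2, an S100 gene of basal keratinocytes, averaged 2915 to 4175 CPM in the lesion stages and 318 CPM in M0, and rose by 3.198 to 3.72 on the log2 scale. S100A14 rose by 1.62 to 1.86 and S100A16 by 2.11 to 2.72. S100A3, a hair cuticle protein gene, averaged 0.0483 to 0.681 CPM in the lesion stages and 18.7 CPM in M0, and was called lower in each stage.

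Interleukins 17, 22, 36 and 1 induce antimicrobial genes in keratinocytes. Of 24 symbols of these cytokines, their receptors and signalling genes 15 were tested, with 8 higher and 0 lower in M1, M3 and M4.1, 9 higher and 0 lower in M2, and 8 higher and 1 lower in M4. Over all tested genes 20.2% to 21.9% were higher and 18.9% to 21.1% lower. The median log2 fold change of the 15 was 0.57 in M1, 0.55 in M2, 1.01 in M3, 0.77 in M4 and 0.72 in M4.1. IL1A rose by 3.62 to 4.402 on the log2 scale, with 84.9 CPM in M4.1 and 3.98 CPM in M0. IL1B rose by 5.75 ± 1.16 in M4.1 (175 CPM in M4.1 and 3.19 CPM in M0) and by 3.70 ± 1.08 in M4 (41.6 CPM in M4). TRAF3IP2, the adaptor of the IL-17 receptor, rose by 0.78 to 1.24. MYD88, the adaptor of interleukin-1 and toll-like receptors, rose by 0.44 to 0.67. Members of this list did not share an order between M4.1 and M4, and none passed the test there. IL1B averaged 175 CPM in M4.1 and 41.6 CPM in M4 (log2 2.06, adjusted p = 0.19), whereas IL36RN averaged 91.9 CPM in M4.1 and 454 CPM in M4 (-2.31, adjusted p = 0.067) and IL36G 25.1 CPM in M4.1 and 110.4 CPM in M4 (-2.13, adjusted p = 0.18), the last 2 chosen after their values were seen.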

How the data were processed

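Libraries were made by 3′ end sequencing of messenger RNA (QuantSeq FWD kit) from biopsy punches, per the labels' protocols. The tools named in the submitters' processing notes are STAR, RSEM 1.3.1, edgeR, cutadapt 2.8 and FastQC 0.11.7, and the build is ARS-UCD1.2. The authors deposited 5 tables, each with whole-number counts per gene for a stage and for the same M0 libraries. A normalized signal deposited beside the counts is CPM with TMM (trimmed mean of M-values) factors of that table, and recomputing it from the counts gave a largest relative difference of 5.0e-15. The deposited p-values were recomputed by a robust edgeR quasi-likelihood fit of the 2 groups of each table. Whether RSEM estimates were rounded to give the counts is not given in the sources used here.

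The tables were joined on their 10629 shared genes and filtered with filterByExpr, which left out 258 genes. All 29 libraries were fitted in 1 edgeR 4.0.16 quasi-likelihood model (R 4.3.3) with TMM factors (0.631 to 1.29) and a coefficient per group. The p-values were adjusted over all 10371 genes by the method of Benjamini and Hochberg, and genes at adjusted p under 0.05 are called. Standard errors are approximate, the absolute log2 fold change over the square root of F. Levels are CPM with these factors, with SD. Correlations use log2 CPM with a prior count of 2. No member is outside the joint fit, so no test within a single table was needed. The method was tested on simulated data.

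The members and gene lists were chosen with earlier results of these data known. A gene of the neutrophil marker list and a gene of the interleukin list are not reported here and were left out of list counts and sums. Named were the 8 members, of each further list at most 4 genes with the smallest median p over the comparisons with M0, and the 3 genes most alike each member. Alternatives were a filter of 10 counts in 10 libraries or none, RLE size factors, a fit of the 2 groups alone, a block for the replicate number, limma-voom (limma 3.58.1), the DESeq2 1.42.0 Wald test, and leaving out each library in turn. All 8 members matched RefSeq gene IDs (ARS-UCD2.0), used for neighbouring genes only. Figures were drawn with matplotlib 3.10.9.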

Additional observations from a re-analysis of the deposited data

Results flagged for a closer look

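In groups of 4 or 5 libraries, the highest or lowest library was marked where its gap to the nearest library, as a share of the group's range, was above Dixon's critical value. Of 48 member and stage groups 8 were marked. A rate of about 1 in 20 groups by chance holds for normally distributed values only. The marking used CPM and not their logarithms, and CPM within a group can be skewed towards high values. The number of marks can therefore not be set against that rate, and a mark alone does not show an unusual library. All 8 are libraries at the high end. S100A7 accounts for 4, with 97.9 CPM in M1 replicate 3 (share 0.749), 967 CPM in M2 replicate 5 (0.9323), 3272 CPM in M3 replicate 4 (0.8287) and 3026 CPM in M4 replicate 5 (0.7611), where the next libraries had 25.8, 67.2, 563 and 743 CPM. M2 replicate 5 was also marked for LAP (329 CPM, next 92.7 CPM, share 0.7744) and for S100A9 (3444 CPM, next 1919.5 CPM, share 0.7252). TAP was marked in M2 replicate 4 (908 CPM, next 261 CPM, share 0.7427) and LTF in M4.1 replicate 3 (22.0 CPM, next 6.57 CPM, share 0.8331). The M2 S100A7 change against M0 was -6.89 without M2 replicate 5 and -4.13 with it.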

How the results depend on the processing

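Of 38 member changes called against M0, the alternatives other than leaving out a library kept 261 of 266 results in the same direction and 254 past adjusted p = 0.05, and the other 5 could not be fitted because LCN2 fails a filter of 10 counts in 10 libraries. Leaving out a library kept 372 of 372 in direction and 368 past the threshold. With limma-voom 3 instead of 5 members were higher in M1, in M2 and in M4.1, where 2305, 2312 and 2170 of 10371 genes were. It had 4 members higher in M3 (2019 genes), and 3 instead of 2 lower in M3 (2134 genes) and in M4 (2273 genes). The cause was not tested. With the filter of 10 counts in 10 libraries 1 instead of 2 members was lower in M3 and in M4, where 1746 and 1943 of 9603 genes were. In M4.1 against M4, 3 members were lower with only the 2 groups compared (191 of 10371 genes were lower) and 3 with DESeq2 (529 of 10007 genes). In M4 against M2, 1 member was higher with only the 2 groups compared (92 of 10371 genes were higher) and 1 with DESeq2 (550 of 7330 genes). Leaving out a library gave 0 to 1, with 1 without M2 replicate 5 (595 of 10369 genes).

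The labels do not say whether replicate numbers pair the libraries. Same-numbered libraries correlated by -0.36 to 0.41 in their deviations from the group means, over 0.1 in 12 of 48 pairs. Differently numbered libraries were not compared in this way, so pairing is unknown. With the replicate block S100A7 was called lower in M4 (-3.72), and over all genes 46 instead of 446 were called in M4.1 against M4 and 62 instead of 323 in M4 against M2. DESeq2 called 962 and 872 genes there, limma-voom 168 in M4.1 against M4, and a fit of the 2 groups alone 381 and 177. Leaving out a library gave 0 to 847 and 0 to 900. Low counts limit LCN2 in lesions and TAP, LAP and PI3 in M0.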
